A study of Mus musculus with 10 samples.

Results

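Sox21 and 6 further transcription factors of its family, Sox9, Sox4, Sox12, Sox13, Sox5 and Sox6, were followed through RNA sequencing of mouse colon crypts. They were taken by gene name after the Ensembl IDs of the count table were matched to symbols, and are 7 of the 33632 IDs in that table and 7 of the 15 Sox genes found there. Crypts came from 2 groups, each of 5 libraries and all from mice labelled as normal in diet and liver. The flox libraries are from Sox21fl/fl mice, in which loxP sites flank Sox21 and no Cre is carried. The CKO libraries are from mice of genotype Lgr5-EGFP-IRES-CreERT2/+;Sox21fl/fl, which add to the same Sox21 alleles 1 copy of a knock-in that makes EGFP and a tamoxifen-inducible Cre from the Lgr5 locus. Sox21fl/fl is thus shared by both groups, and only CKO carries the altered Lgr5 locus. Age, sex, the tamoxifen schedule, whether flox mice had tamoxifen, and which bases of Sox21 lie between the loxP sites were not stated in the labels. Lgr5 marks the stem cells at the crypt base, so the crypts hold many cells in which this Cre is not made, and the knock-in is known for patchy expression between crypts. Where this Cre is made does not by itself give which cells carry a deleted Sox21 allele. Whether each library was a separate animal is not stated, and p-values then cover only the spread among these libraries, which may be technical.

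Sox proteins bind DNA through a shared domain, the HMG box, which sits in the minor groove and bends the helix. The family is sorted by that domain. Sox21 is a B2 factor, known mainly as a repressor that works against the B1 activators of its family. Sox9 is an E factor, made at the crypt base under Wnt signalling and needed for Paneth cells in the small intestine. Sox4 and Sox12 are C factors with an activation domain, and Sox4 has been tied to tuft and enteroendocrine cells. Sox13, Sox5 and Sox6 are D factors, which pair through a coiled coil and have no activation domain of their own. Sox13 is also known as a partner of the Wnt factor TCF1, the product of Tcf7.

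The kinship of the 7 genes can be read in their coding sequence. Shown are the 60 bases that encode the start of the most conserved part of the HMG box, from the GENCODE M21 transcripts, 5′ to 3′, with capitals at the bases that differ from Sox21.
Sox21: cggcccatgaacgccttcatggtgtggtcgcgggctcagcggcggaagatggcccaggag
Sox9: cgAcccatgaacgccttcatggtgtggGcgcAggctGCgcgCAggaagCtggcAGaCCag
Sox4: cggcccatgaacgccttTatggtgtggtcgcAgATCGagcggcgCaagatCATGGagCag
Sox12: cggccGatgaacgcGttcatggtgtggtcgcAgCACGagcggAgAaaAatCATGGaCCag
Sox13: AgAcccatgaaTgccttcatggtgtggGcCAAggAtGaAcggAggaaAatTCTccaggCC
Sox5: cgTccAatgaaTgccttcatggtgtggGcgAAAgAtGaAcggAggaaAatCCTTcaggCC
Sox6: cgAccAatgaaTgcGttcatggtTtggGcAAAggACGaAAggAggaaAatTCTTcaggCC
Of the 60 bases, Sox9 shared 48 with Sox21 (80%), Sox4 shared 47 (78.3%) and Sox6 shared 38 (63.3%), the fewest of the 6. Within subfamilies the stretch was closer: 85% identical between Sox4 and Sox12, 88.3% between Sox13 and Sox5, and 86.7% between Sox6 and each of the other D genes. Over whole transcripts, not only this stretch, the longest run of identical bases was 33 bases, for Sox4 and Sox12. It was 24 bases or fewer for every other pair. How reads that match more than 1 gene were counted is not stated in the labels.

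Total counts ran from 18926634 to 23642415 per library, and no pair of libraries agreed within sampling noise. The libraries flox 1 and flox 4 stood apart, with 26.5% and 29.3% of counts on mitochondrial genes against 4.30% to 11.8% in the other 8. Levels are therefore given in CPM, read counts divided by a library size that was scaled by the trimmed mean of M values (TMM), and results that rest on these libraries are given also without them. Transcripts of colon epithelium were abundant: Cdx2, the factor that specifies intestinal epithelium, averaged 337 ± 45.6 CPM in flox against 298 ± 114 CPM in CKO (SD, n = 5 each). Marker lists of colonocytes (10 genes), goblet cells (8) and stem cells (12) were all above the filter on low counts. No marker of any list was at 0 in all 10 libraries. The summed level of the 8 goblet markers was 25102 to 39979 CPM in flox and 13611 to 24432 CPM in CKO, and these ranges did not overlap. That of the 12 fibroblast and telocyte markers, of which 10 passed the filter, was 33.3 to 105 CPM in flox and 76.4 to 265 CPM in CKO, with an overlap. Their part in the Sox values was not tested. In whole crypts, fewer cells of a type and less RNA per cell cannot be told apart.

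The transcript of Sox21 itself was found in every library. It gave 25, 184, 91, 36 and 114 reads in flox 1 to 5, and 178, 186, 98, 64 and 149 reads in CKO 1 to 5. Scaled to library size this was 1.98, 6.53, 4.06, 2.72 and 4.93 CPM in flox and 7.79, 6.73, 3.39, 3.51 and 5.27 CPM in CKO. The lowest levels were those of flox 1 and flox 4, the highest that of CKO 1, and the groups overlapped from 3.39 to 6.53 CPM. The means of 4.04 ± 1.80 CPM in flox and 5.34 ± 1.94 CPM in CKO (SD, n = 5 each) gave a log2 fold change of 0.38 ± 0.34 (SE, edgeR quasi-likelihood test, adjusted p = 0.577). The CKO level was 0.781 to 2.18 times the flox level (95% interval), so with all 10 libraries this range held no decrease below 0.781 times the flox level. Without flox 1 and flox 4 the log2 fold change was 0.05 ± 0.30 (edgeR adjusted p = 0.990). The spread between libraries was wider than read counting alone gives: the coefficient of variation was 44.6% in flox and 36.4% in CKO, against 13.6% and 9.33% from Poisson error.

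How far these reads check the genotype is limited by the locus. Sox21 has 1 annotated transcript, of 1 exon and 3799 bases, of which 828 are coding, so its reads carry no splice junction, and a read outside the deleted part is counted whether or not the allele was recombined. On the other strand lies Gm4675, a long noncoding RNA gene of 24968 bases that overlaps Sox21 by 799 bases. Gm4675 gave 50, 35, 25, 16 and 10 reads in flox 1 to 5, against 23, 33, 30, 32 and 30 reads in CKO. In flox 1 its reads outnumbered those of Sox21, while in flox 5 the counts were 10 and 114. Without a stated strand setting, reads of these genes in the shared stretch cannot be told apart. Gm4675 had a log2 fold change of -0.36 (edgeR adjusted p = 0.710), opposite in sign to that of Sox21.

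The 250 bases before the start of Sox21 are shown because by the annotation they too lie inside Gm4675. They are from the RefSeq promoter table on GRCm38.p6, chr14:118237031-118237280, minus strand, 5′ to 3′, with a TCF/LEF core, here as its reverse complement TCAAAG, in capitals.
Sox21 promoter: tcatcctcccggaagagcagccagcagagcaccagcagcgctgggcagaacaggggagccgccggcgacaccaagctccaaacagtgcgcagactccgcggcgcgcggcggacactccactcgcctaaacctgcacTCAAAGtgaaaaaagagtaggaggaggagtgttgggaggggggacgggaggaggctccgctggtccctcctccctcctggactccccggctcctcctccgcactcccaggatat
A search for the TCF/LEF core CTTTGA, the letters bound by the DNA-binding partners of beta-catenin, on both strands found 1 match, and 13.8% of 32851 promoters of this length hold one. The Sox core AACAAT was not found in this window, and 9.42% of promoters hold it on either strand. Of the 6 genes of the set in that table, 2 held the TCF/LEF core and 1 held the Sox core. A gene was counted if any promoter listed for it held the core, whereas the percentages are of single promoters. A match of letters is a description of the sequence and not evidence of binding.

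The protein-coding neighbours of Sox21 did not pass the test either. Gpr180, which encodes a membrane protein, averaged 20.4 ± 6.83 CPM in flox against 24.2 ± 1.36 CPM in CKO, with a log2 fold change of 0.25 (edgeR adjusted p = 0.565). Abcc4, an exporter of organic anions and cyclic nucleotides, averaged 3.94 ± 1.61 CPM in flox against 7.97 ± 3.58 CPM in CKO. The log2 fold change was 0.999 ± 0.35 with an unadjusted p of 0.0156 in edgeR (adjusted p = 0.365), and the groups overlapped.

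Lgr5, the gene that hosts the Cre, was found at 1.58, 5.57, 2.27, 1.74 and 3.76 CPM in flox 1 to 5 and 2.71, 2.43, 6.43, 4.83 and 7.25 CPM in CKO 1 to 5. As for Sox21, flox 1 and flox 4 held the lowest values, and the groups overlapped.

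The E factor Sox9 had similar means in both groups. It was at 75.6, 75.2, 47.3, 64.8 and 55.6 CPM in flox 1 to 5, and at 55.0, 70.2, 65.1, 57.3 and 66.6 CPM in CKO 1 to 5. Every CKO value lay inside the range of flox. The means of 63.7 ± 12.4 and 62.8 ± 6.46 CPM gave a log2 fold change of -0.02 ± 0.15 (edgeR adjusted p = 0.954) and a ratio between 0.791 and 1.23 (95% interval). The sign turned under several alternatives, among them scaling by library totals (0.37) and leaving out flox 1 and flox 4 (0.09). Over all 10 libraries its coefficient of variation was 14.7%, against 21.6% to 40.4% for Sox13, Sox4, Sox6, Sox12 and Sox21. Within groups the order was different, since Sox6 varied less in flox (12.02% against 19.4% for Sox9) and Sox4 varied less in CKO (7.49% against 10.3%).

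The C factor Sox4 was uneven among the flox libraries. Its levels were 52.1, 33.8, 25.8, 41.4 and 23.4 CPM in flox 1 to 5 and 28.4, 30.6, 34.5, 30.5 and 32.9 CPM in CKO 1 to 5. Flox 1 and flox 4 were the highest of all libraries, and the 5 CKO values fell between 28.4 and 34.5 CPM. The coefficient of variation was 33.3% in flox and 7.49% in CKO, with 3.99% and 3.63% from Poisson error. The log2 fold change was -0.17 ± 0.20 (edgeR adjusted p = 0.677), and it was 0.19 ± 0.14 without flox 1 and flox 4 and 0.30 when scaled by library totals.

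Sox12, the other C factor, gave 33 to 83 reads per library. It was at 4.75, 2.73, 3.39, 2.87 and 2.16 CPM in flox 1 to 5 and 1.44, 2.17, 2.87, 2.41 and 2.79 CPM in CKO 1 to 5. Flox 1 was highest and CKO 1 lowest, the reverse of their places for Sox21. It had the smallest p of the 6 genes, with a log2 fold change of -0.43 ± 0.27 (edgeR unadjusted p = 0.132, adjusted p = 0.454). That difference was -0.23 without flox 1 and flox 4, and scaling by library totals turned it to 0.0055.

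Sox13 led the D factors in the authors' length-scaled values, with a mean of 17.0 FPKM against 2.01 FPKM for Sox6 and 0.127 FPKM for Sox5. Its levels in CPM were 22.9, 47.1, 44.2, 38.5 and 42.0 CPM in flox 1 to 5 and 49.0, 57.8, 41.8, 37.2 and 38.9 CPM in CKO 1 to 5. Flox 1 lay well below the other 9 libraries and CKO 2 was highest. The log2 fold change was 0.20 ± 0.19 (edgeR adjusted p = 0.602), and 0.02 ± 0.15 without flox 1 and flox 4.

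Sox6 was at 4.67, 6.57, 5.93, 5.97 and 5.71 CPM in flox 1 to 5 and 8.10, 6.12, 6.09, 5.87 and 1.63 CPM in CKO 1 to 5. A single library, CKO 5, lay below all others, with 46 reads, and CKO 1 was highest. In flox the coefficient of variation was 12.02%, close to the 10.01% of Poisson error, while in CKO it was 42.7% against 9.81%. The log2 fold change was -0.06 ± 0.33 (edgeR adjusted p = 0.938) and turned to 0.18 without CKO 5 and to 0.26 when scaled by library totals. The antisense gene Sox6os had 0 to 5 reads per library against 46 to 185 of Sox6.

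Sox5 was the only one of the 7 that did not pass the filter on low counts. It gave 4, 15, 2, 0 and 2 reads in flox 1 to 5 and 9, 2, 13, 5 and 4 reads in CKO 1 to 5, or 23 and 33 in sum. Gm44068, annotated within Sox5 on the same strand, gave at most 1 read in a library. At this depth no difference between the groups was detectable for it.

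**Figure D1:**
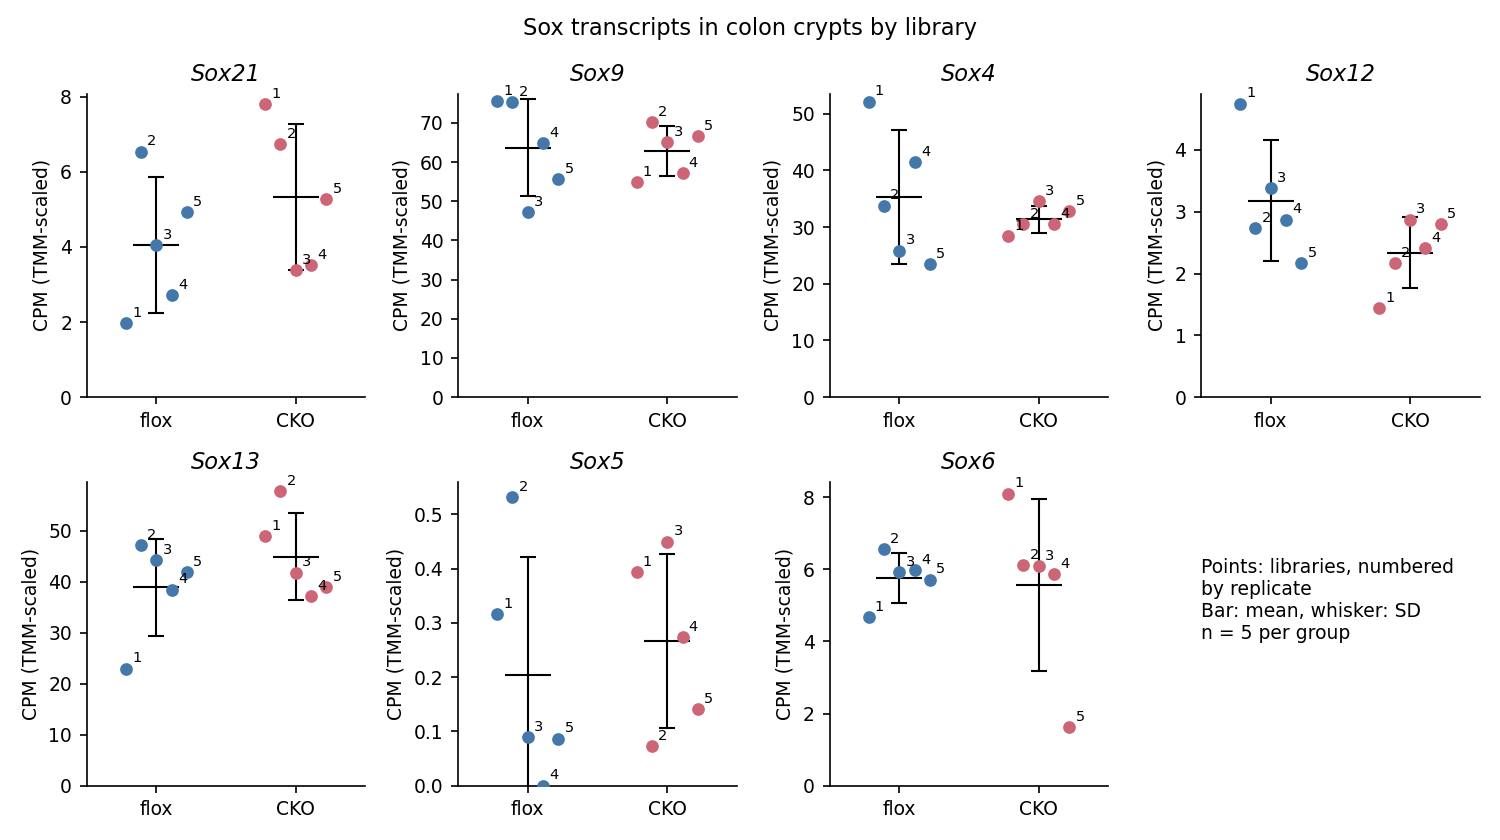
Levels of the 7 Sox transcripts in CPM scaled by TMM (vertical axes from 0, a scale of its own per gene) in the 5 flox and 5 CKO libraries, numbered by replicate, with mean and SD. The groups overlap for each gene, flox 1 is the lowest library for Sox21 and Sox13 and the highest for Sox4 and Sox12, and CKO 5 is lowest for Sox6.

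Read together, the 6 tested genes did not separate the groups. By edgeR, 0 of 6 passed an adjusted p of 0.05, where the share over all 14963 tested genes was also 0%. At an unadjusted p under 0.05 the count was 0 of 6, beside 13.0% of all tested genes (5.05% higher and 7.91% lower in CKO), and without flox 1 and flox 4 it was 0 of 6 beside 6.41%. DESeq2 called 0 of 6 and 1.19% of all tested genes, and 0 of 6 had groups that did not overlap, beside 2.18%. Sox21 and Sox13 were higher in CKO and Sox9, Sox4, Sox12 and Sox6 lower, with a median log2 change of -0.04 against 0.0010 over all tested genes, of which 50.1% were higher. Those signs depend on scaling, since with library totals alone the median of all tested genes moved to 0.36 and all 6 members were above 0. Relative to that shift, Sox21 (0.62) and Sox13 (0.50) were above the median, Sox9 (0.37) was level with it, and Sox4 (0.30), Sox6 (0.26) and Sox12 (0.0055) were below it.

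**Figure D2:**
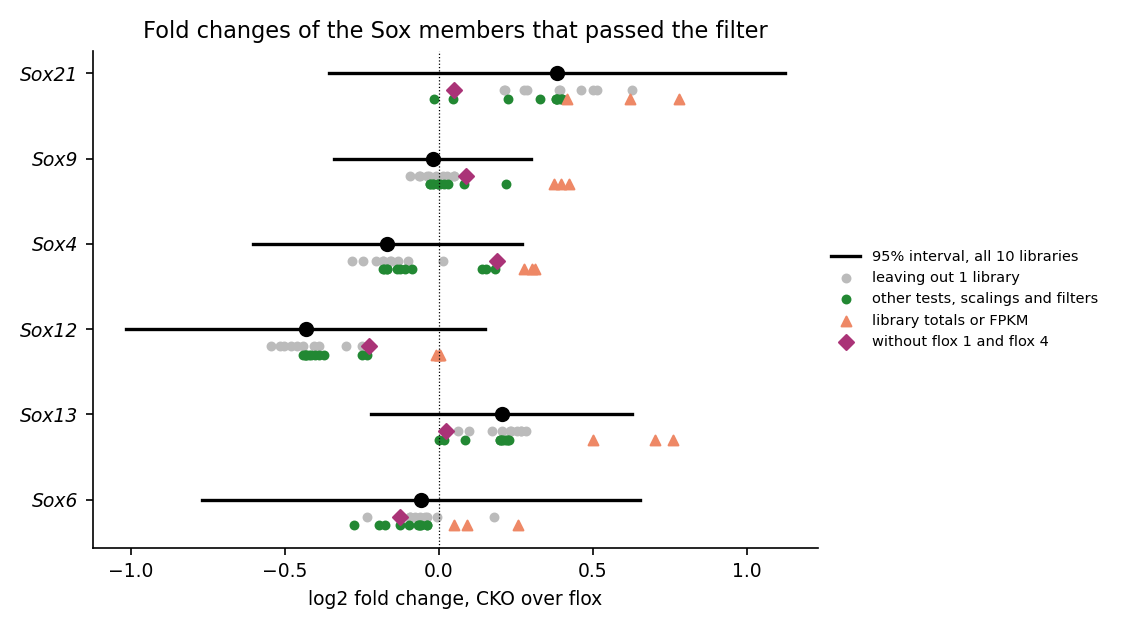
Log2 fold change of CKO over flox (horizontal axis) for the 6 Sox genes that passed the filter: black points and lines give the edgeR estimate and its 95% interval, and small marks the estimates under alternatives. All 6 intervals include 0. For Sox9, Sox4, Sox12 and Sox13 the triangles, from library totals or FPKM without TMM scaling, lie to the right of all other marks, and Sox9, Sox4, Sox12 and Sox6 reach values above 0 there.

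A ratio of 2 genes within a library does not depend on scaling between libraries. Relative to Sox9, the log2 ratio of counts of Sox21 was -4.07 ± 0.79 in flox and -3.62 ± 0.56 in CKO (SD, n = 5 each). It was lowest in flox 1 (-5.23) and flox 4 (-4.55) and highest in CKO 1 (-2.82). The ratio of Sox4 to Sox9 was the least variable of the 6, at -0.89 ± 0.31 in flox and -0.998 ± 0.12 in CKO, and between -1.25 and -0.54 in every library. Mean ratios of Sox13, Sox12 and Sox6 to Sox9 differed between the groups by 0.23, -0.43 and -0.22, and that of Sox5 by 0.65 on very few reads. The ranges of the groups overlapped for all 6 ratios.

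Levels can be compared between genes only per length, for which the authors' FPKM (fragments divided by transcript length and library total) were used. Over the 10 libraries, mean FPKM was 17.0 ± 6.85 for Sox13, 17.0 ± 4.89 for Sox9, 7.38 ± 1.56 for Sox4, 2.01 ± 0.710 for Sox6, 1.47 ± 0.765 for Sox21, 0.661 ± 0.180 for Sox12 and 0.127 ± 0.104 for Sox5 (SD, n = 10). Sox13 and Sox9 could not be ordered, since Sox13 was the higher in 4 of 10 libraries. Sox9 lay above Sox4, Sox4 above Sox6, and Sox12 above Sox5 in 10 of 10 libraries, and in each of these steps the ranges did not overlap. Sox6 exceeded Sox21 in 7 of 10 libraries and Sox21 exceeded Sox12 in 9 of 10, and in both steps the ranges overlapped. By this measure Sox21, the gene targeted in this study, ranked below Sox13, Sox9 and Sox4 in 10 of 10 libraries.

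**Figure D3:**
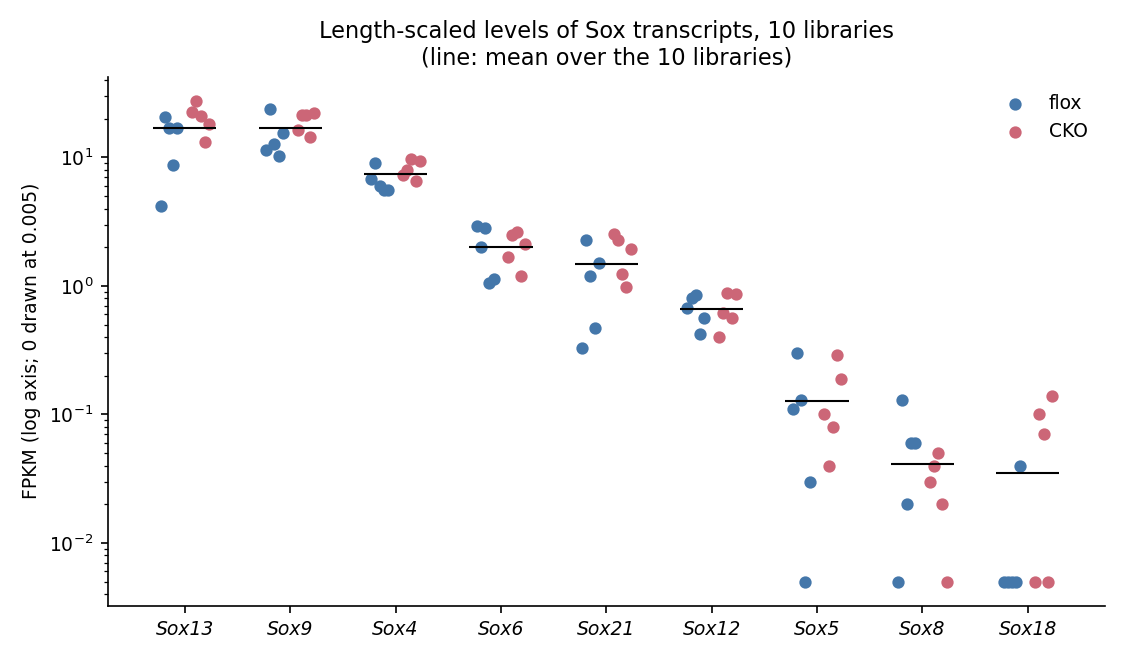
The authors' FPKM (vertical log axis, values of 0 drawn at 0.005) of the 7 Sox genes and of Sox8 and Sox18 in the 5 flox and 5 CKO libraries, with a line at the mean of 10. Sox13 and Sox9 share the top at a mean of 17.0, and Sox5, Sox8 and Sox18 reach 0 in at least 1 library.

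The 8 other Sox genes in the table gave hardly any reads, and none passed the filter. Sox8, the E relative of Sox9, had 23 reads over the 10 libraries and Sox10, the E factor of enteric glia, had 1. The summed level of 7 glial and neuronal markers was 2.90 to 4.94 CPM in flox and 2.23 to 4.39 CPM in CKO. Sox18, a factor of blood and lymph vessels, had 10, of which 1 was in flox and 9 in CKO. Beside this, the summed level of 8 endothelial markers, of which 3 passed the filter, was 9.04 to 10.996 CPM in flox and 5.87 to 9.59 CPM in CKO. Of the 3, Vwf averaged 6.49 CPM in flox against 3.57 CPM in CKO. Pecam1 and Esam did not share its direction, with log2 fold changes of 0.16 and 0.07. Sox7, Sox11 and Sox15 had 2 reads each, and Sox1 and Sox3 had 1 each. With so few reads, differences between the groups were not tested for these Sox genes.

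FPKM rests on a transcript length, and the length behind it was not the same in each library for every gene. Dividing counts by FPKM and the total count gives the length implied by the deposited values. For Sox21, with its 1 annotated transcript, it was 3.45 to 3.52 kb, and for Sox9, Sox4 and Sox12 it also kept within 1.01-fold. In these 4 genes the implied length was 283 to 349 bases short of the longest annotated transcript. For the D factors it was not fixed: 2.46 to 3.19 kb for Sox13 (5 annotated transcripts) and 0.931 to 5.45 kb for Sox6 (16 annotated transcripts), a 5.86-fold range. The shortest Sox6 lengths were those of flox 1 and CKO 5, the libraries with its lowest CPM. There FPKM was 2.93 and 2.12, against 1.06 to 2.80 in the other 8, so Sox6 in flox 1 was the lowest of its group by CPM and the highest by FPKM. For Sox13, flox 1 had the longest implied length, 3185 bases, and CKO 2 the shortest, 2455 bases. Which transcripts the reads came from is not part of the tables used here.

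**Figure D4:**
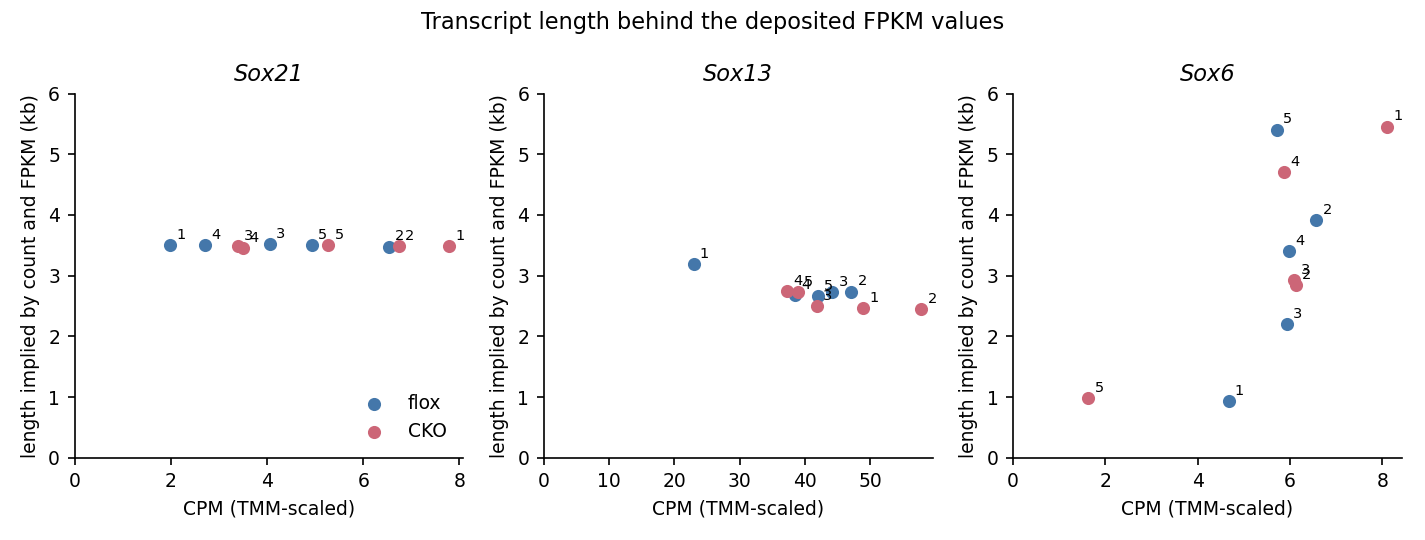
Transcript length implied by count and FPKM (vertical axis, kb) against CPM scaled by TMM (horizontal axis) for Sox21, Sox13 and Sox6, 1 point per library numbered by replicate. Sox21 sits on a flat line near 3.5 kb, Sox13 has flox 1 apart at 3.19 kb, and Sox6 spreads from 0.931 to 5.45 kb.

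Across the 10 libraries, 1 of the 21 pairs of Sox genes was related after adjustment over the 21. Sox21 and Sox13 varied together, with Pearson's r of 0.84 (permutation p = 0.0010, adjusted p = 0.0216) and Spearman's rho of 0.85 (permutation p = 0.0029, adjusted p = 0.0607) on log2 CPM. Without flox 1 and CKO 1, the libraries farthest from the median of Sox21, r was 0.72. Within the 8 libraries without flox 1 and flox 4 it was 0.71 (exact permutation p = 0.0444, adjusted p = 0.466). The call was lost without flox 1 alone (r = 0.74, exact permutation adjusted p = 0.408) and without flox 4 alone (r = 0.88, exact permutation adjusted p = 0.0507). Many genes shared this pattern: 5.86% of the other tested genes had an r with Sox21 at least as high as that of Sox13, and 4.5% did so over the 8 libraries.

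Sox9 and Sox4 held the second positive relation, with r = 0.72 (permutation p = 0.0173, adjusted p = 0.118) and rho = 0.76 (permutation p = 0.0146, adjusted p = 0.104), which missed the threshold. Without flox 3 and CKO 1, the libraries farthest from the median of Sox9, r was 0.68, and over the 8 libraries it was 0.76 (exact permutation p = 0.0291, adjusted p = 0.466). Few genes were as close to Sox9 as Sox4 was. Of 14962 other tested genes, 49 (0.327%) had an r at least as high over 10 libraries, and 316 (2.11%) over 8.

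The negative relations were weaker without the 2 libraries farthest from the median of the first gene. That step narrows the range of the first gene, which by itself can weaken r, so it cannot show that a relation rests on those libraries. Sox21 and Sox12 had r = -0.78 (permutation p = 0.0062, adjusted p = 0.0652; rho = -0.76, permutation p = 0.0148), which was -0.41 without flox 1 and CKO 1, and -0.63 over the 8 libraries (exact permutation p = 0.0856). With single libraries left out, r of this pair was -0.85 to -0.63. Among the alternatives run, it passed the threshold only without flox 2 (r = -0.85, exact permutation adjusted p = 0.0460). Many genes shared this relation too: 11.3% of the other tested genes had an r with Sox21 at least as negative, and 8.41% over the 8 libraries. Sox21 and Sox4 had r = -0.67 (permutation p = 0.0328, adjusted p = 0.118; rho = -0.55, permutation p = 0.103), but -0.35 without flox 1 and CKO 1 and -0.02 over the 8 libraries. At least as negative with Sox21 as Sox4 were 18.9% of the other tested genes over 10 libraries and 46.2% over 8. For Sox4 with Sox13, r was -0.70 (permutation p = 0.0338, adjusted p = 0.118; rho = -0.49, permutation p = 0.155), -0.39 without flox 1 and flox 5, and -0.02 over the 8. For Sox12 with Sox13 it was -0.73 (permutation p = 0.0293, adjusted p = 0.118; rho = -0.55, permutation p = 0.105), -0.31 without flox 1 and CKO 1, and -0.38 over the 8. Sox4 and Sox12, the C pair with 85% identity in the stretch shown above, had r = 0.64 over 10 libraries (permutation p = 0.0489, adjusted p = 0.147; rho = 0.60, permutation p = 0.0733) and 0.22 over 8. Without flox 1 and flox 5 it was 0.24. Sox21 and Sox9 showed no relation that held in sign, with r of -0.15 over 10 libraries (permutation p = 0.681; rho = -0.15, permutation p = 0.682), 0.41 without flox 1 and CKO 1, and 0.33 over 8. With this pair, 14 pairs had r between -0.32 and 0.34. Among them Sox13 and Sox6 had r = 0.30 (permutation p = 0.253) but rho = 0.72 (permutation p = 0.0233, adjusted p = 0.122). Scaled by library totals alone, Sox21 was positively related to all 6 others, with r from 0.13 for Sox12 to 0.95 for Sox13, so its negative signs were lost with that scaling.

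**Figure D5:**
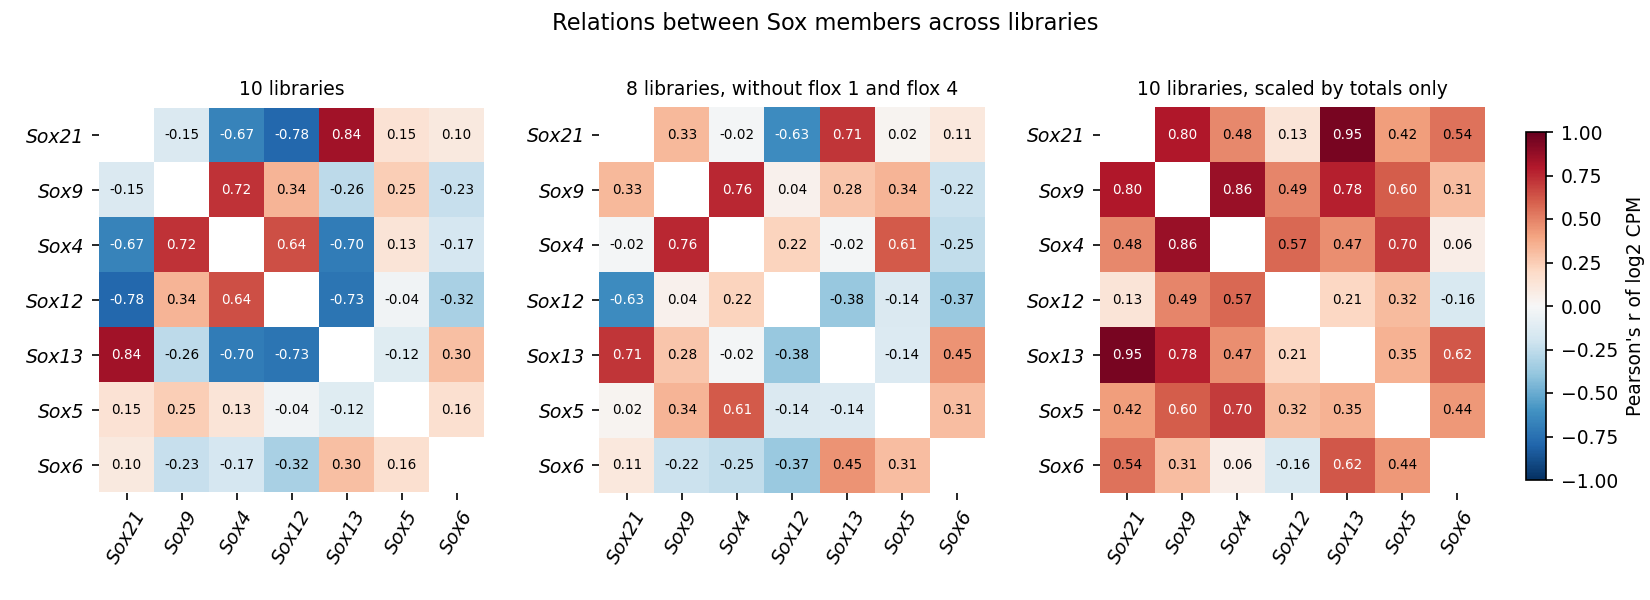
Pearson's r (colour and printed value) of log2 CPM between the 7 Sox genes over 10 libraries, over the 8 without flox 1 and flox 4, and over 10 libraries scaled by library totals alone. Sox21 with Sox13 (0.84, 0.71 and 0.95) and Sox9 with Sox4 (0.72, 0.76 and 0.86) stay positive in all 3 panels, while r between Sox21 and Sox4 goes from -0.67 to -0.02 and 0.48.

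Genes most like Sox21 and Sox9 were sought among 10786 named genes of at least 2 CPM, ranked by the smaller r over 10 and over 8 libraries. Beside Sox21 stood Lif, a cytokine of the interleukin 6 family, with r of 0.96 over 10 libraries and 0.97 over 8, at 3.18 CPM on average. It was followed by Aggf1 (0.94 and 0.93), an angiogenic factor, Zbtb10 (0.92 and 0.91), a zinc finger factor, Nfs1 (0.92 and 0.91), the cysteine desulfurase of iron-sulfur cluster assembly, and Mospd2 (0.96 and 0.90), a membrane contact protein. Beside Sox9 stood Vangl2, a core planar cell polarity protein, with r of 0.95 over 10 libraries and 0.94 over 8, at 2.42 CPM on average. The next were Zfp687 (0.86 and 0.85), Nsmce3 (0.81 and 0.80), Nsun6 (0.79 and 0.79) and Ttl (0.79 and 0.77), the last of which encodes tubulin tyrosine ligase. No gene of the Sox set was among either 5. These are the highest of many values, given as a description with no test.

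Genes known to work with Sox factors or downstream of them were read from the same fit. Of 9 tested TCF/LEF factors and Groucho corepressors, through which Wnt targets are switched on and off, 0 passed by edgeR and 1 by DESeq2, which called 1.19% of all tested genes. They had 4 higher, 5 lower and a median log2 change of -0.10, or 8 higher and 1 lower and a median of 0.36, equal to that of all genes, with library totals alone. The DESeq2 call was Tle6, a Groucho family member, with 4.37 ± 0.791 CPM in flox against 2.07 ± 0.629 CPM in CKO. All 5 CKO libraries were below all 5 flox libraries for Tle6, as for 1.26% of tested genes, with a log2 fold change of -1.07 ± 0.26 (edgeR adjusted p = 0.279). Tcf7, whose product TCF1 binds Sox13, averaged 3.43 ± 0.461 CPM in flox against 4.50 ± 0.757 CPM in CKO (log2 fold change 0.39, edgeR adjusted p = 0.392).

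Of 7 tested genes linked to Sox9 in gut epithelium, 1 was higher and 6 lower in CKO, with a median log2 fold change of -0.13, and with library totals alone 6 were higher and 1 lower. The 1 higher was Igfbp4 (log2 fold change 0.43, edgeR adjusted p = 0.547). The list holds both genes reported as restrained by Sox9 and genes reported as its targets, so these counts do not measure Sox9 activity. By edgeR 0 passed, and by DESeq2 1 of 7, beside 1.19% of all tested genes. Muc2, the main mucin of goblet cells, reported as restrained by Sox9, averaged 14237 ± 3135 CPM in flox against 8591 ± 2060 CPM in CKO, and was the gene called by DESeq2. The log2 fold change of Muc2 was -0.73 ± 0.28 (edgeR adjusted p = 0.372), and no CKO library reached the flox range, as for 1.26% of tested genes. Of 8 goblet markers, Muc2 among them, 8 were lower in CKO with a median log2 fold change of -0.72 (7 of 8 and -0.36 with library totals alone), where 50.1% of all tested genes were higher. Of the 8, 0 passed by edgeR and 1, Muc2, by DESeq2, beside 1.19% of all tested genes. The 2 with the smallest p in edgeR were Spdef, a regulator of goblet cell maturation, with 169.0 ± 31.6 CPM in flox against 111.0 ± 22.4 CPM in CKO (log2 fold change -0.61, edgeR adjusted p = 0.332), and Spink4, a goblet cell peptide, with 2032 ± 1462 CPM in flox against 785 ± 237 CPM in CKO (-1.37, edgeR adjusted p = 0.357). All 5 CKO libraries were below all 5 flox libraries for Spdef, as for 1.26% of tested genes, and the groups overlapped for Spink4. Prkca, a kinase gene reported as a Sox9 target, averaged 88.3 ± 12.2 CPM in flox against 77.0 ± 12.2 CPM in CKO (log2 fold change -0.20, edgeR adjusted p = 0.498).

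Of 9 tested tuft and endocrine genes linked to Sox4, 4 were higher and 5 lower, and 0 passed by edgeR or DESeq2. The 5 lower were the tuft genes Gfi1b, Avil (-0.32), Trpm5 (-0.32), Pou2f3 (-0.31) and Dclk1 (-0.18). The 4 higher were Dll1, Neurod1 (0.55), Atoh1 (0.15) and Neurog3 (0.14). With library totals alone 5 were higher and 4 lower. The median log2 fold change of the list, which pools both sides, was -0.18 (0.04 with library totals alone). The median was -0.56 without flox 1 and flox 4, in which Sox4 was highest. Gfi1b, a tuft cell repressor, averaged 1.499 ± 0.517 CPM in flox against 0.871 ± 0.311 CPM in CKO (log2 fold change -0.76, edgeR adjusted p = 0.381). Dll1, a Notch ligand of secretory precursors, averaged 4.32 ± 2.08 CPM in flox against 7.06 ± 2.45 CPM in CKO (log2 fold change 0.69, edgeR adjusted p = 0.404).

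Of 12 markers of the stem cells, in which the Cre is made, 9 were higher and 3 lower in CKO, and 12 were higher with library totals alone. In the main fit the median difference of these 12 was 0.43 on the log2 scale, or 0.13 without flox 1 and flox 4. Of them, 0 passed by edgeR or DESeq2, beside 0% and 1.19% of all tested genes. The 2 with the smallest p were Cdca7 with 27.7 ± 8.38 CPM in flox against 45.4 ± 10.7 CPM in CKO (log2 fold change 0.71, edgeR adjusted p = 0.354) and Smoc2 at 22.1 ± 6.47 and 34.1 ± 11.4 CPM (0.62, edgeR adjusted p = 0.372). Of 10 colonocyte markers, 6 were higher and 4 lower, with a median log2 change of 0.07 and 0 past the threshold by edgeR or DESeq2. Their 2 smallest p were those of Slc26a3, an anion exchanger, with 194 ± 93.0 CPM in flox against 331 ± 41.3 CPM in CKO (log2 fold change 0.77, edgeR adjusted p = 0.366), and Guca2b, uroguanylin, with 33.5 ± 13.0 CPM in flox against 22.6 ± 7.66 CPM in CKO (-0.57, edgeR adjusted p = 0.397).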

How the data were processed

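RNA sequencing was done on colon crypts in 10 libraries (5 flox, 5 CKO). Per the submitters' processing notes, reads went through fastp and HISAT2. The genome build, annotation, counting tool and strand setting are not stated there or in the labels. The deposited counts are raw whole numbers of reads for each Ensembl ID. The deposited FPKM values were made by the authors, and their gene lengths are not stated. Symbols came from GENCODE M21 for 26095 of 33632 IDs, and of 126 entries in the gene lists 120 matched, 1 through RefSeq.

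Counts were compared with edgeR 4.0.16 in R 4.3.3 (filterByExpr, TMM, robust quasi-likelihood test, group as the only term), with Benjamini-Hochberg adjustment over 14963 genes and a threshold of 0.05. Log2 CPM used a prior count of 2. Correlations used 100000 permutations, or all orderings where fewer than 10 libraries entered, adjusted over 21 pairs. They were also run on values centred on group means. Poisson errors and the 95% intervals cover counting error and the spread in the fit, respectively. Alternatives were other scalings and filters, DESeq2 1.42.0, limma 3.58.1 (voom, and log2 of FPKM plus 1 or 0.1), a replicate block, the mitochondrial share as a covariate, and left-out libraries. DESeq2 without flox 1 and flox 4 was added after seeing the data. The script was tested on simulated data.

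The genes and lists were chosen with earlier results of these data known. Named are the 7 members, other Sox genes, Lgr5, Cdx2, the 2 genes of smallest p in each list, the 5 genes most like Sox21 and Sox9, the nearest coding neighbours of Sox21 and genes that overlap a member. Muc2 and Vwf are named also as calls of DESeq2. Further genes of the Sox4, Sox9 and endothelial lists are named for their direction.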

Additional observations from a re-analysis of the deposited data

Results flagged for a closer look

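Of 54 sets of values searched for a single library apart from the rest (CPM, log2 CPM, implied length or ratio to Sox9 of a gene in a group), 4 held one, where chance gives about 1 in 20. Sox13 in flox 1 had a log2 CPM of 4.53, against 5.27 to 5.56 in flox 2 to 5. The same library had an implied Sox13 length of 3185 bases, against 2661 to 2736 bases in the rest of flox. Sox6 in CKO 5 had a log2 CPM of 0.78, against 2.57 to 3.03 in CKO 1 to 4. The implied length of Sox9 in CKO 5 was 3835 bases against 3815 to 3820 bases in the other CKO libraries, a gap of few bases. The cause of these values was not tested.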

How the results depend on the processing

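No alternative moved a Sox gene past the threshold in the comparison of CKO and flox. The number of all genes called by adjusted p was 0 by edgeR, 3 with no filter, 178 by DESeq2, 44 by limma voom with quality weights, 1 with the mitochondrial share in the model, 71 by DESeq2 without flox 1 and flox 4, and 0 to 2 when single libraries were left out (2 without flox 2). The log2 fold change of Sox21 was above 0 in 24 of 25 alternatives, and -0.014 once the mitochondrial share entered the model. It was 0.21 to 0.63 when single libraries were left out. Sox13 was above 0 in 25 of 25. For Sox9 the sign turned in 13 of 25: 0.018 by upper quartile scaling, 0.37 by library totals, 0.0058 with no filter, 0.22 by voom with quality weights, 0.40 and 0.42 by limma on log2 of FPKM plus 1 and plus 0.1, 0.031 with the mitochondrial share, 0.090 without flox 1 and flox 4 (0.083 by DESeq2), and -0.095 to 0.050 with single libraries left out. Sox4 turned to 0.30 by library totals, 0.15 by voom with quality weights, 0.28 and 0.31 by FPKM, 0.14 with the mitochondrial share and 0.19 without flox 1 and flox 4 (0.18 by DESeq2), and was -0.28 to 0.013 with single libraries left out. Sox12 turned to 0.0055 by library totals. Sox6 turned to 0.26 by library totals and 0.049 and 0.092 by FPKM, and was -0.23 to 0.18 with single libraries left out. Library totals and FPKM moved the median of all genes to 0.36, 0.30 and 0.41, so these turns are changes of scale in part. The cause of the others was not tested.

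Of the 21 pairs, 1 passed by Pearson's r, 0 without flox 1 and flox 4, 0 by Spearman's rho, 4 by FPKM, 4 by library totals, and 0 to 2 with single libraries left out (0 without flox 1 or without flox 4, 2 without flox 2). With DESeq2 size factors 1 passed, and with values centred on group means 1 passed. Centred in this way, r was 0.82 for Sox21 with Sox13 (permutation adjusted p = 0.0456) and -0.74 for Sox21 with Sox12 (permutation adjusted p = 0.108). By FPKM and by library totals r turned to 0.80 and 0.80 for Sox21 with Sox9, 0.49 and 0.48 for Sox21 with Sox4, 0.13 and 0.13 for Sox21 with Sox12, 0.45 and 0.47 for Sox4 with Sox13, and 0.16 and 0.21 for Sox12 with Sox13. Sox21 with Sox9 was 0.33 without flox 1 and flox 4 and -0.34 to 0.18 with single libraries left out.

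Deviations of same-numbered flox and CKO libraries were related unevenly (correlations of -0.30, 0.28, 0.09, 0.40 and -0.06 for replicates 1 to 5), and 2 of 5 flox libraries correlated best with their own number. These values do not settle whether the numbers pair libraries. With the replicate number as a block, 0 genes passed and Sox21 had a log2 fold change of 0.40 (edgeR adjusted p = 0.560). Sox5, Sox8 and Sox18 are limited by depth.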

Other observations

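The summed level of 4 Y-linked genes and Xist, of which Xist did not pass the filter, was 59.8 to 91.2 CPM in flox and 63.6 to 71.6 CPM in CKO. The mean log2 CPM of the 4 Y-linked genes alone, relative to the flox mean of each, was -0.22 to 0.27 in flox and -0.11 to 0.08 in CKO. Y-linked transcripts were thus present in all 10 libraries. Vwf, an endothelial marker, averaged 6.49 ± 0.564 CPM in flox against 3.57 ± 0.487 CPM in CKO (log2 fold change -0.86, edgeR unadjusted p = 0.000156, adjusted p = 0.174). All 5 CKO libraries were below all 5 flox libraries for Vwf, as for 1.26% of tested genes, and DESeq2 called it (adjusted p = 0.000324), the only one of 3 tested endothelial markers, beside 1.19% of all tested genes. Pecam1 had a log2 fold change of 0.16 (edgeR adjusted p = 0.832). Of 7 tested T cell markers, 7 were lower in CKO (median log2 fold change -0.37, and -0.13 without flox 1 and flox 4), but 3 of 7 with library totals alone. Of 4 tested B and plasma cell markers, 4 were lower (median -0.90, and -0.0034 without flox 1 and flox 4), or 3 with library totals alone. In both lists 0 genes passed by edgeR or DESeq2. Of 10 tested fibroblast and telocyte markers, 10 were higher in CKO, beside 50.1% of all tested genes. Their median log2 fold change was 1.03, or 0.99 without flox 1 and flox 4 and 1.37 with library totals alone. By edgeR 6 of the 10 had an unadjusted p under 0.05 and were higher in CKO, beside 5.05% of all tested genes. Of the 10, 0 passed by edgeR or DESeq2 after adjustment. The 2 smallest p of each further list were those of Cd2 (log2 fold change -1.02, edgeR adjusted p = 0.381) and Cd3g (-0.68, 0.496) for T cells, and of Derl3 (-0.999, 0.365) and Jchain (-1.10, 0.446) for B and plasma cells. For fibroblasts and telocytes they were those of Col3a1 (1.39, edgeR adjusted p = 0.358) and Col6a2 (1.21, 0.359), and for glia and neurons those of Ret (-0.22, 0.736) and Snap25 (-0.26, 0.742). For the sex-linked transcripts they were those of Ddx3y (-0.92, edgeR adjusted p = 0.379) and Eif2s3y (0.11, 0.783).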
